A study of Mus musculus with 23 samples.

Results

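Bulk tumors of the murine glioma line CT2A were compared with cells sorted out of CT2A tumors, to describe which transcripts belonged to the brain and stroma around the tumor and which stayed with the tumor cells. The comparison held 7 of the 23 RNA sequencing libraries of the series, chosen by their titles: 4 bulk tumors, samples 39, 40, 47 and 48, and 3 sorted samples, 69, 70 and 71. CT2A is a carcinogen-induced glioma line that grows in the brains of immunocompetent C57BL/6 mice. The bulk tumors, Cohort A, came from CT2A-luc, which carries firefly luciferase. The sorted samples, Cohort B, came from a subline of it that also carries a truncated human surface protein as a handle for bead-based magnetic selection after the tumors had been dissociated, and this line was grown as adherent culture before implantation. All tumors grew from cells injected into the right striatum of young adult female albino mice. No group received a treatment.

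The groups differed in more than the sort. Cohort, subline, number of implanted cells, dissociation and selection, RNA and library kits as the study describes them, sequencer and read length (pairs of 150 bases in bulk, pairs of 37 bases in sorted libraries) split the 7 libraries in the same way, and their parts in any difference below cannot be told apart. The sample labels name 1 library kit for all, whereas the series design names a directional kit for the sorted cells. A harvest time was given for the bulk tumors alone. The labels say only that these are separate samples, while the study's figure legends count 4 mice for the bulk tumors and 3 for the sorted cells. The p-values set the difference between groups against the spread between these libraries.

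A glioma that grows in the striatum lies among neurons, astrocytes and myelinating oligodendrocytes, recruits macrophages and microglia, and is fed by vessels of endothelial cells and pericytes. Bulk RNA pools all of these, and a transcript that tumor cells do not make appears in bulk in proportion to the tissue dissected with the tumor. Cell type markers, such as synaptic proteins for neurons or myelin proteins for oligodendrocytes, tell the sources apart where tumor cells do not express the same genes. In bulk tissue, fewer cells of a type and less RNA per cell cannot be told apart.

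By Salmon, on whose counts the tests rest, depth was similar in both groups. The bulk libraries held 9590096 to 9853530 estimated reads and the sorted libraries 8325102 to 9641749. By RSEM, the other quantification of the study, depth differed, with 13079287 to 13860517 in bulk and 7611887 to 8756484 in sorted libraries. Values below are normalised counts, estimated reads per gene scaled by TMM to a common library size, in the order of bulk tumors 39, 40, 47 and 48 and of sorted samples 69, 70 and 71. Parentheses after the counts of a gene hold its log2 fold change, bulk minus sorted, with the SE, and the adjusted p-value from edgeR's quasi-likelihood test with a threshold of 0.05. A call is a gene past that threshold. Levels of gene lists are summed TPM, transcript levels scaled to transcript length and to the same total in each library. The human protein used for the sort was not measured here.

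Of 14701 genes tested, 3955 (26.9%) were higher in bulk and 3376 (23%) higher in sorted cells, and the values of the groups did not overlap for 8059 genes (54.8%). The counts were similar but the sizes were not. The median log2 fold change was 2.31 among genes higher in bulk and -0.61 among genes higher in sorted cells, and 3007 genes were more than 2-fold higher in bulk against 577 more than 2-fold higher in sorted cells. With scaling by library size alone, 69.4% of the called genes were higher in bulk instead of 53.9%, and the median of all genes moved from 0.00 to 0.16. Reads of the genes higher in bulk made up 14.0 to 23.5% of a bulk library and 5.96 to 6.18% of a sorted library. In 136 of them no read was found in any sorted library, and in 20 genes higher in sorted cells no read was found in any bulk library. The genes higher in bulk were not only markers of brain and stroma. Among those with the smallest p were genes in none of the cell type lists, including olfactory and vomeronasal receptor genes and predicted genes. Mean normalised counts in bulk and in sorted cells were 1485 and 2.61 for Nphs1, 75450 and 456 for Slc38a6, and 4888 and 15.9 for Olfr784. The source of these differences, and their part in the counts and sizes above, was not tested.

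**Figure D1:**
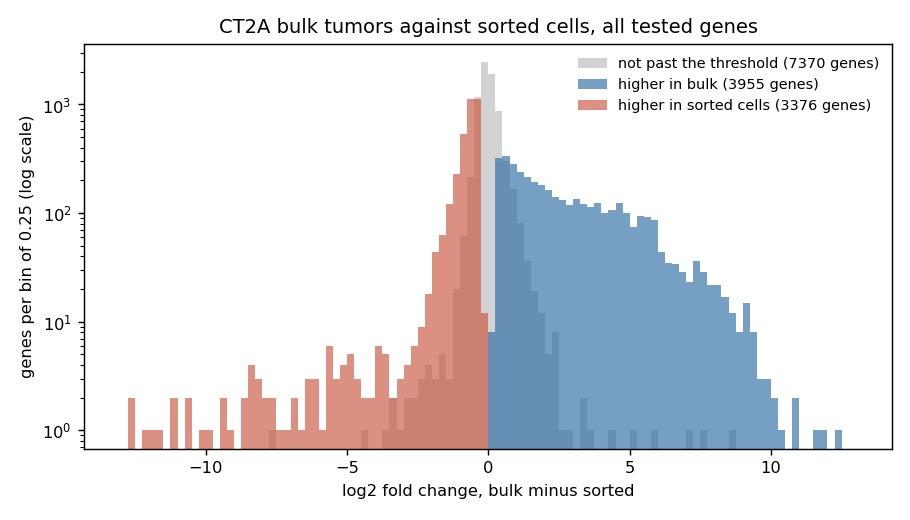
Distribution of log2 fold changes (bulk minus sorted, x axis) of the 14701 tested genes, as number of genes per bin of 0.25 (y axis, log scale), by whether the gene passed the threshold of 0.05. The 3955 genes higher in bulk reach far to the right, with 1126 above 4, while most of the 3376 genes higher in sorted cells lie between -2 and 0.

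Neuronal transcripts were far higher in bulk. All 14 tested members of the neuron list were higher in bulk, against 26.9% of all genes, with a median log2 fold change of 4.48. Snap25, a synaptic vesicle fusion protein, had 3678, 979.9, 4858 and 6773 normalised counts in the bulk tumors and 64.5, 109 and 95.8 in the sorted cells. The groups stood far apart, bulk tumor 40 was lowest of its group and 48 highest, and the log2 fold change was 5.50 ± 0.70 (SE, adjusted p = 9.3e-04). Syp, the synaptic vesicle protein synaptophysin, had 2325, 806, 3486 and 3819.6 in bulk and 17.9, 35.9 and 26.8 in sorted cells, with 6.59 ± 0.67 (SE, adjusted p = 5.4e-04). Rbfox3, the splicing factor NeuN, had 615, 193, 677 and 1096 against 15.5, 30.3 and 26.8, with 4.72 ± 0.64 (SE, adjusted p = 0.0011). The same order of bulk tumors, lowest in 40 and highest in 48, held for these 3 genes. At the other end of the list, Tubb3, a neuronal beta-tubulin, had 1923, 1508, 2133 and 1899 in bulk and still 754, 1011 and 596 in sorted cells (1.25 ± 0.19 SE, adjusted p = 0.0016). Map2, a dendritic microtubule protein, had 2599.5, 1068, 3766 and 4459 against 702, 815 and 773 (1.96 ± 0.44 SE, adjusted p = 0.0079). Camk2a, a synaptic kinase, was the 1 member whose groups overlapped, with 6579.5, 1082, 6234 and 9369.7 in bulk and 593, 1059 and 1166 in sorted cells. Summed over the list, bulk tumors held 1906, 761, 2588 and 3102 TPM and sorted cells 149, 218 and 187 TPM, so that the mean of the sorted cells was 8.83% of that of bulk.

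Genes of single neuron classes were higher in bulk in all but 1 member. Of glutamatergic genes 9 of 10 tested were higher in bulk, of GABAergic genes 10 of 10 and of genes of striatal projection neurons, the main output cells of the injected region, 13 of 13. Over all genes the share was 26.9%. The sorted cells held 4.30%, 4.02% and 4.64% of the summed TPM of bulk in the 3 lists. Slc17a7, the vesicular glutamate transporter of cortical neurons, had 2288, 381, 1934 and 3279 normalised counts in bulk and 46.6, 107 and 84.4 in sorted cells (4.63 ± 0.75 SE, adjusted p = 0.0021). Gria2, an AMPA receptor subunit, had 1379, 461, 1745 and 2604 against 8.37, 7.86 and 7.21 (7.61 ± 0.77 SE, adjusted p = 5.4e-04). Gad1, which makes GABA, had 603, 451, 1459.8 and 1476 against 8.37, 14.6 and 12.4 (6.38 ± 0.63 SE, adjusted p = 5.0e-04). Sst, the peptide of somatostatin interneurons, had 216, 100.4, 367 and 401 against 0, 1.12 and 0. Bulk tumors 47 and 48 were higher than 39 and 40 in both genes. Among the striatal genes, the dopamine receptor Drd1 had 50.7, 22.3, 90.0 and 228 normalised counts and the peptide precursor Tac1 24.4, 50.2, 110.4 and 235, and neither had a read in any sorted library, so bulk was at least 29.2-fold and at least 31.4-fold higher against a floor of 3 reads per library. The second dopamine receptor, Drd2, had 55.4, 55.8, 88.1 and 193 in bulk and 0, 0 and 2.06 in sorted cells (6.83 ± 0.93 SE, adjusted p = 0.0011). Ppp1r1b, the dopamine-regulated phosphatase inhibitor DARPP-32, had 390.4, 134, 633 and 1385 against 15.5, 32.5 and 19.6 (4.81 ± 0.87 SE, adjusted p = 0.0032). Tumor 48 was the highest of the 4 in these striatal genes, and the striatal sum was 221, 139.8, 438 and 779.9 TPM in the bulk tumors.

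**Figure D2:**
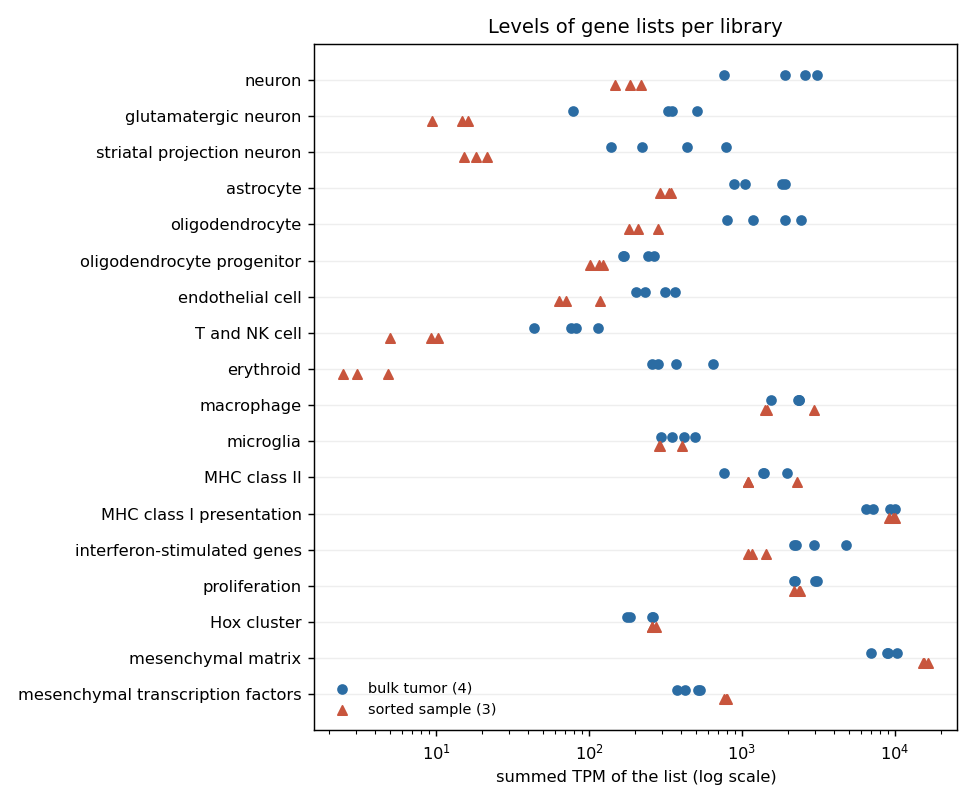
Summed TPM of 18 gene lists (rows) in each library (x axis, log scale), with 1 point per bulk tumor (4, circles) and 1 per sorted sample (3, triangles). Neuron, myelin, T and NK cell and erythroid lists lie far higher in bulk, macrophage, MHC class II and proliferation lists overlap between the groups, and the mesenchymal lists lie higher in all 3 sorted samples.

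Astrocyte genes were higher in bulk in 12 of 14 tested members and higher in sorted cells in 1, against 26.9% and 23% of all genes. Their median was 2.81. Gfap, the intermediate filament of reactive astrocytes, had 4333, 5235, 11222 and 9223 normalised counts in bulk and 238, 744 and 461 in sorted cells (3.96 ± 0.52 SE, adjusted p = 9.7e-04). Aqp4, the water channel of astrocyte endfeet, had 659.7, 832, 1509.9 and 1491 against 27.5, 65.1 and 42.2 (4.64 ± 0.44 SE, adjusted p = 4.2e-04). Both were lowest in tumor 39 and highest in 47, an order unlike that of the neuronal genes. Slc1a2, the main glutamate transporter, had 4467, 1395, 5121 and 7257 in bulk and 863, 1977 and 1662 in sorted cells (1.60 ± 0.53 SE, adjusted p = 0.037), but tumor 40 lay within the range of the sorted samples and the call was lost in 6 of the 7 fits that left out 1 library. Gja1, the gap junction protein connexin 43, had 1871, 2144, 1734 and 1608 in bulk and 2257, 2131 and 2328 in sorted cells and did not pass (-0.28 ± 0.11 SE, adjusted p = 0.070). Sox9, a transcription factor of glia and of cartilage and mesenchyme, was the member higher in sorted cells, with 481, 577, 481 and 434 in bulk and 873, 697 and 553 in sorted cells (-0.52 ± 0.16 SE, adjusted p = 0.030), but sample 71 lay within the range of bulk and the call was lost in 5 of these 7 fits.

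Myelin genes were higher in bulk in 12 of 12 tested members of the oligodendrocyte list, against 26.9% of all genes. The sorted cells held 14.2% of the summed TPM of bulk. Mbp, myelin basic protein, had 3515, 5038, 9929 and 8183 normalised counts in bulk and 1291, 1390.4 and 1953 in sorted cells (2.11 ± 0.38 SE, adjusted p = 0.0030). Mog, a surface myelin protein, had 90.1, 126, 286 and 242 against 1.20, 1.12 and 1.03 (7.23 ± 0.68 SE, adjusted p = 3.6e-04). In both the lowest bulk tumor was 39 and the highest 47. Summed over the list, the bulk tumors held 794, 1187, 2421 and 1910.3 TPM, so tumor 40, lowest for neurons, was not lowest for myelin. The share left in sorted cells was uneven within the list. In TPM, the mean of the sorted cells was 20.1% of bulk for Mobp, another compact myelin protein, and 19.4% for Mbp, against 1.28% for Cldn11, the tight junction protein of myelin, and 0.94% for Mog. The neuronal genes were uneven too, with 14.7% left for Camk2a and 0.56% for Syt1, the calcium sensor of vesicle release.

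Genes used as markers of oligodendrocyte progenitors went both ways. The lineage transcription factors were higher in bulk, with Sox10 at 125, 175, 290.3 and 226 against 8.37, 4.49 and 6.18 (4.99 ± 0.41 SE, adjusted p = 1.8e-04) and Olig1 at 265, 341, 624 and 615 against 17.9, 34.8 and 26.8 (4.11 ± 0.42 SE, adjusted p = 5.6e-04). Olig2 had 65.7, 108, 205 and 172 against 3.59, 7.86 and 2.06 (4.91 ± 0.59 SE, adjusted p = 7.6e-04). Pdgfra, a growth factor receptor of progenitors and of mesenchymal cells, had 914, 1121, 970.1 and 850.4 in bulk and 1905, 1999 and 2073 in sorted cells and was higher in sorted cells (-1.05 ± 0.11 SE, adjusted p = 5.0e-04). Cspg4, the proteoglycan NG2 of progenitors and pericytes, had 1105, 1356, 1023 and 725 against 1679, 1803 and 2156 and was also higher in sorted cells (-0.84 ± 0.20 SE, adjusted p = 0.0093). All 3 sorted samples lay above all 4 bulk tumors for both Pdgfra and Cspg4 and below them in the lineage factors. In all, 9 of the 11 tested members were higher in bulk, against 26.9% of all genes.

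Markers of the ependyma and choroid plexus depended on 1 tumor. Ttr, the transthyretin that choroid plexus secretes, had 7.51, 3.72, 27.8 and 3989 normalised counts in the bulk tumors and 173, 191 and 291 in sorted cells, so tumor 48 alone stood above the sorted cells and the other 3 bulk tumors below them. Kl, the choroid plexus protein klotho, had 11.3, 4.65, 33.4 and 153. Clic6, a chloride channel protein of the same epithelium, had 6.57, 4.65, 19.5 and 116, again highest in 48. None of the 4 tested members of the list passed the threshold, and without tumor 48 the log2 fold change of Ttr was -4.05 and passed. A similar dependence was seen for fibroblast genes in tumor 47, where Dpt, the matrix protein dermatopontin, had 4.69, 8.37, 154 and 15.7 normalised counts, Pi16, a marker of adventitial fibroblasts, 6.57, 9.30, 125 and 6.47. Clec3b, the secreted protein tetranectin, had 6.57, 2.79, 85.3 and 13.9.

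Variation among the bulk tumors was larger in the genes that were higher in bulk. Their median SD of log2(CPM + 1) was 0.51 within the bulk tumors and 0.19 within the sorted cells, against 0.17 and 0.11 for the genes higher in sorted cells. Over all genes tested it was 0.22 and 0.15. Genes higher in sorted cells changed less, and a small change passes only where the spread is small. The calls themselves therefore partly set this contrast. The neuronal sum differed 4.08-fold and the myelin sum 3.05-fold between the lowest and highest bulk tumor, whereas the sum over mesenchymal matrix genes differed 1.47-fold.

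**Figure D3:**
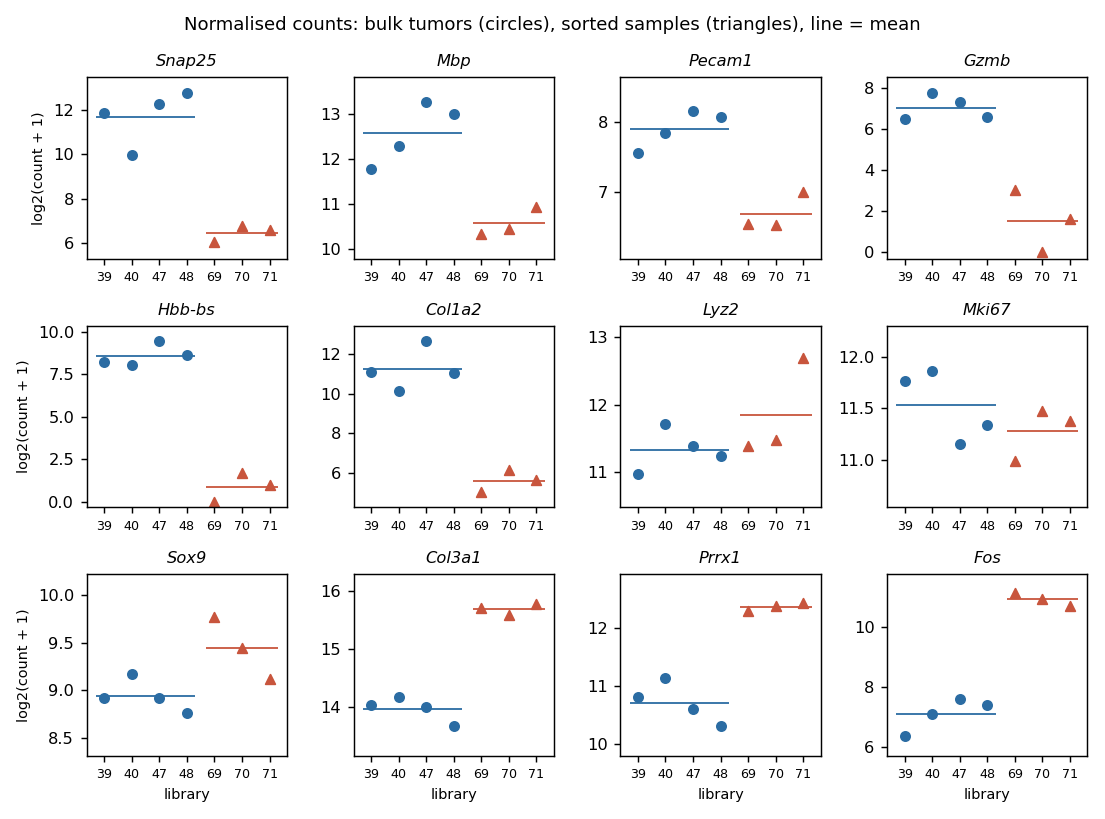
Normalised counts (y axis, log2 of count + 1) of 12 genes, 1 panel each, in the 4 bulk tumors (39, 40, 47, 48, circles) and the 3 sorted samples (69, 70, 71, triangles), with a line at the mean of each group. Snap25, Mbp, Pecam1, Gzmb, Hbb-bs and Col1a2 are lower in every sorted sample, Lyz2 and Mki67 overlap, Sox9 overlaps in sample 71 only, and Col3a1, Prrx1 and Fos are higher in every sorted sample.

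Vascular genes were mostly higher in bulk. Of 15 tested endothelial genes 13 were higher in bulk, against 26.9% of all genes. Their median was 1.44, against 4.48 in the neuron list, and 30.3% of the bulk sum was left in sorted cells. Pecam1, the adhesion molecule CD31, had 188, 228, 286 and 267 normalised counts in bulk and 92.0, 90.9 and 127 in sorted cells (1.23 ± 0.20 SE, adjusted p = 0.0019). Cdh5, the endothelial cadherin, had 159, 212, 214 and 176 against 46.6, 60.6 and 125 (1.29 ± 0.33 SE, adjusted p = 0.012). Cldn5, the tight junction protein of the blood-brain barrier, had 164, 258, 258 and 326 against 52.6, 53.9 and 92.7 (1.91 ± 0.30 SE, adjusted p = 0.0016). Sample 71 was the highest sorted sample in each of the 3. Without sample 70, 8 endothelial genes were called. Flt1, a VEGF receptor, did not pass, with 569.6, 681, 832 and 609 in bulk and 574, 679 and 669 in sorted cells (adjusted p = 0.70).

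The pericyte and smooth muscle list was split. Of 9 tested members 5 were higher in bulk and 2 higher in sorted cells, against 26.9% and 23% of all genes. Rgs5, a pericyte regulator of G-protein signaling, had 319, 411, 455 and 506 normalised counts in bulk and 127, 135 and 172 in sorted cells (1.55 ± 0.19 SE, adjusted p = 7.6e-04). Kcnj8, a pericyte potassium channel, had 21.6, 24.2, 35.2 and 29.6 against 2.39, 1.12 and 0 (4.48 ± 0.64 SE, adjusted p = 0.0012). Vtn, the matrix protein vitronectin, had 158, 113, 283 and 261 against 14.3, 19.1 and 22.7 (3.43 ± 0.40 SE, adjusted p = 7.0e-04). Notch3, a receptor of mural cells, went the other way, with 446, 581, 363 and 454 in bulk and 865, 1054 and 1229.5 in sorted cells (-1.19 ± 0.18 SE, adjusted p = 0.0013), as did Acta2, smooth muscle actin, with 303, 277, 374 and 212 against 545, 532 and 355 (-0.71 ± 0.22 SE, adjusted p = 0.026), but sample 71 lay below tumor 47 and the call was lost in 3 of the 7 fits without 1 library. Tagln, another contractile protein, was higher in bulk, with 189.6, 278, 389 and 357 against 38.2, 35.9 and 34.0 (3.07 ± 0.28 SE, adjusted p = 3.0e-04).

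Of 12 fibroblast and meningeal genes 7 were higher in bulk and none higher in sorted cells, against 26.9% and 23% of all genes. Without sample 69, without sample 71 or, of 8 then tested, without tumor 47, 4 were called. Dcn, a small collagen-binding proteoglycan, did not pass, with 147, 145, 697 and 265 in bulk and 206, 209.9 and 162 in sorted cells. Lum, a related proteoglycan, did not pass either, with 144, 133, 505 and 303 against 351, 199 and 212, and tumor 47 was highest in both. Slc6a13, a transporter of the leptomeninges, had 23.5, 4.65, 37.1 and 40.7 in bulk and 0, 0 and 1.03 in sorted cells (5.75 ± 1.15 SE, adjusted p = 0.0044). Ptgds, the prostaglandin synthase of meninges and cerebrospinal fluid, had 1166, 221, 2113 and 1696 against 90.8, 81.9 and 58.7 (4.08 ± 0.75 SE, adjusted p = 0.0033). Of the 32 lists, the erythroid one had the smallest share left in sorted cells. Hbb-bs, a beta-globin, had 294, 260.3, 710.4 and 400.3 normalised counts in bulk and 0, 2.24 and 1.03 in sorted cells (8.40 ± 0.70 SE, adjusted p = 2.6e-04), and over the 4 tested erythroid genes, all higher in bulk, sorted cells held 0.89% of the bulk sum. The globin copies Hba-a1 and Hba-a2 are near-identical and reads may be shared between them.

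T and NK cell genes were also largely gone from the sorted samples. Of 12 tested T and NK cell genes 11 were higher in bulk, against 26.9% of all genes, with 10.4% of the bulk sum left, though at low counts. Cd3e, a chain of the T-cell receptor complex, had 8.45, 19.5, 20.4 and 22.2 normalised counts in bulk and 7.17, 1.12 and 5.15 in sorted cells (1.95 ± 0.60 SE, adjusted p = 0.026), with a log2 fold change of 1.18 that did not pass from the RSEM counts. Cd8a, the co-receptor of cytotoxic T cells, had 14.1, 69.7, 24.1 and 71.2 against 13.1, 6.73 and 3.09 (2.55 ± 0.75 SE, adjusted p = 0.022). The granule protease Gzmb had 89.2, 211, 159.5 and 94.3 against 7.17, 0 and 2.06 (5.48 ± 0.71 SE, adjusted p = 9.3e-04). Gzma had 29.1, 126, 44.5 and 34.2 against 1.20, 0 and 0 (6.88 ± 1.05 SE, adjusted p = 0.0015). Tumor 40, lowest for neurons, was the highest bulk tumor for both granzymes. Foxp3, the factor of regulatory T cells, had 33.8, 39.0, 40.8 and 38.8 against 2.39, 4.49 and 1.03 (3.81 ± 0.45 SE, adjusted p = 7.0e-04), but from the RSEM counts its log2 fold change was 0.96 and did not pass. Without sample 70, 7 of the T and NK cell genes were called. Of the 3 tested B and plasma cell genes, Ighm, the IgM heavy chain, was higher in bulk (1.15 ± 0.31 SE, adjusted p = 0.017), a call lost without sample 70, the other 2 did not pass, and sorted cells held 41.5% of the bulk sum of the list.

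Macrophage genes were present in the cells sorted as tumor cells, most without a called difference from bulk and the called ones at higher levels. None of 16 tested members was higher in bulk and 3 were higher in sorted cells, against 26.9% and 23% of all genes. The median log2 fold change of the list was -0.01. Csf1r, the receptor for the macrophage growth factor CSF1, had 1214, 1602, 1975 and 2239 normalised counts in bulk and 967, 1191 and 2279.9 in sorted cells (log2 fold change 0.25 ± 0.32 (SE, adjusted p = 0.55)). Ptprc, the leukocyte antigen CD45, had 468, 661, 659 and 654 against 463, 471 and 972 (-0.06 ± 0.28 SE, adjusted p = 0.87). C1qa, a complement chain made by macrophages and microglia, had 1449.9, 2260.2, 2275 and 2471 against 1300.4, 1319 and 2153 (0.41 ± 0.24 SE, adjusted p = 0.19). The groups overlapped in all 3, and sample 71 was the highest sorted sample in each. Adgre1, the surface protein F4/80, had 281, 426, 332 and 448 against 384, 353 and 823 (adjusted p = 0.23). Mrc1, the mannose receptor of perivascular and repair-type macrophages, was higher in sorted cells, with 181, 140.4, 114 and 123 in bulk and 255, 366 and 821 in sorted cells (-1.78 ± 0.38 SE, adjusted p = 0.0065), as was Ms4a7, a membrane protein of monocyte-derived macrophages, with 90.1, 146, 105 and 149.8 against 204, 231 and 399 (-1.18 ± 0.28 SE, adjusted p = 0.0091). Summed TPM was 1541, 2339.9, 2315 and 2339.7 in the bulk tumors and 1416, 1463 and 2968 in the sorted samples. By these markers the sorted samples held transcripts of hematopoietic cells beside those of tumor cells, and the part of such cells in the other differences was not tested. Without sample 71, 3 macrophage genes were called higher in bulk and 2 higher in sorted cells, the median of the list was 0.35, and over all genes 3491 were higher in bulk and 2699 higher in sorted cells.

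Few microglial genes passed the test. Of 11 tested members 2 were higher in bulk and 1 in sorted cells, against 26.9% and 23% of all genes. Sorted cells held 84.1% of the bulk sum. P2ry12, the purinergic receptor of resting microglia, had 87.3, 98.6, 150.2 and 248 normalised counts in bulk and 58.6, 108 and 135 in sorted cells (adjusted p = 0.32). Tmem119, a microglial membrane protein, had 405, 564, 493 and 632 against 476, 447 and 444 (adjusted p = 0.29). Siglech, a lectin of microglia and plasmacytoid dendritic cells, was higher in bulk, with 56.3, 45.6, 121 and 124 against 17.9, 43.8 and 17.5 (1.71 ± 0.51 SE, adjusted p = 0.024), a call lost in 4 of the 7 fits without 1 library. Monocyte genes were higher in bulk for Ly6c2, a monocyte surface protein with 116, 218, 252 and 176 against 71.7, 34.8 and 68.0 (1.71 ± 0.34 SE, adjusted p = 0.0045). Among the sorted samples, S100a8, a calcium-binding protein of neutrophil granules, was highest in sample 70. It reached 111 normalised counts there, against 8.37 in sample 69 and 15.4 in sample 71. Its call was lost in 3 of the 7 fits without 1 library. Among dendritic cell genes, Flt3, a growth factor receptor, had 23.5, 32.5, 33.4 and 47.1 against 2.39, 4.49 and 6.18 (2.92 ± 0.44 SE, adjusted p = 0.0015). Ccr7, the chemokine receptor of migrating cells, had 28.2, 67.9, 55.6 and 46.2 against 4.78, 5.61 and 10.3 (2.81 ± 0.45 SE, adjusted p = 0.0018).

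Genes of MHC class II, which presents antigen mainly on such myeloid cells, did not pass in any of 7 tested members. Over all genes 26.9% were higher in bulk and 23% higher in sorted cells. Cd74, the invariant chain, had 1668, 3046, 4088 and 2897 normalised counts in bulk and 3112, 2993 and 6547 in sorted cells (-0.53 ± 0.36 SE, adjusted p = 0.26). H2-Aa, a class II alpha chain, had 669, 1365, 1952 and 1323 against 1492, 1510.5 and 2800.0 (-0.54 ± 0.36 SE, adjusted p = 0.25). Sample 71 was again the highest sorted sample, as it was for the macrophage list, and without it 2 class II genes were called higher in bulk.

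On the sorted side, the list with the most calls by number was that of extracellular matrix genes, and by share that of mesenchymal transcription factors. Of 28 tested members of the mesenchymal matrix list 18 were higher in sorted cells, against 23% of all genes, 2 were higher in bulk, and the median was -1.04. Summed TPM was 8921, 10294, 8892 and 7003 in bulk and 16456, 15328 and 15545 in sorted cells, with no overlap. Col3a1, a fibrillar collagen, had 16884, 18522, 16494 and 13133 normalised counts in bulk and 52999.7, 48741 and 56106 in sorted cells (-1.69 ± 0.15 SE, adjusted p = 2.9e-04). Fn1, fibronectin, had 15047, 10747, 9056 and 8536 against 19280.1, 22627 and 16403 (-0.84 ± 0.22 SE, adjusted p = 0.013). The basement membrane collagen Col4a1 had 9612, 13113, 7898 and 6466 against 34315, 33018 and 37295 (-1.91 ± 0.23 SE, adjusted p = 7.6e-04), and the groups did not overlap in any of these 3. Postn, the matricellular protein periostin, had 1402, 3183, 2159 and 2039 against 12791, 12011 and 9888 (-2.40 ± 0.26 SE, adjusted p = 5.8e-04). Col6a3, a microfibrillar collagen, had 756, 806, 1202 and 843 against 3785, 4157 and 3397 (-2.07 ± 0.17 SE, adjusted p = 2.0e-04). Each sorted sample exceeded each bulk tumor in both. Vim, the intermediate filament vimentin, was abundant in both groups, with 17832, 19659, 16035 and 14103 in bulk and 25726, 23538 and 19816 in sorted cells (-0.45 ± 0.16 SE, adjusted p = 0.045), a call lost in 5 of the 7 fits without 1 library. Without 1 library each, the number of matrix genes called higher in sorted cells ran from 16 to 20.

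Col1a2 and Lox were the 2 matrix genes higher in bulk. Col1a2, the alpha-2 chain of collagen I, had 2147, 1105, 6441 and 2143 normalised counts in bulk and 32.3, 70.7 and 48.4 in sorted cells (5.87 ± 0.75 SE, adjusted p = 9.3e-04), on chromosome 6 at 4504814 to 4541544 of GRCm38. Its partner chain Col1a1 had 2962, 2401, 6926 and 4579 in bulk and 9863, 7721 and 4044 in sorted cells and did not pass (-0.77 ± 0.41 SE, adjusted p = 0.16), and sample 71 lay within the range of bulk. Lox, lysyl oxidase, which cross-links collagen, had 259, 89.3, 383 and 192 against 1.20, 7.86 and 0 (6.22 ± 0.86 SE, adjusted p = 0.0012). Both genes were highest in tumor 47, as were the fibroblast genes Dpt and Dcn. Per transcript length, Col1a1 averaged 132 TPM in bulk and 206 in sorted cells, and Col1a2 103 and 1.63, so the chains of collagen I were at like levels in bulk and far apart in sorted cells.

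Transcription factors of mesenchymal cells followed the matrix genes. Of 16 tested, 12 were higher in sorted cells and 1 in bulk, against 23% and 26.9% of all genes, with a median of -0.90. Prrx1, a homeobox factor of limb and craniofacial mesenchyme, had 1792, 2244, 1555 and 1260.0 normalised counts in bulk and 4991, 5310.3 and 5499 in sorted cells (-1.62 ± 0.18 SE, adjusted p = 6.3e-04). Twist1, a factor of epithelial-mesenchymal transition, had 321, 389, 291 and 238 against 588, 582 and 592 (-0.92 ± 0.15 SE, adjusted p = 0.0021). Zeb2 had 1027, 1086, 991 and 1005 against 1533, 1776 and 2021 (-0.79 ± 0.11 SE, adjusted p = 9.7e-04). All 3 were without overlap. Runx1, a factor of blood and mesenchyme, had 1144, 1194, 880.2 and 770.0 against 1923, 2290.4 and 1968 (-1.05 ± 0.16 SE, adjusted p = 0.0016). Snai1, a repressor of cadherins, was the member higher in bulk, at low counts of 16.9, 12.1, 19.5 and 9.24 against 8.37, 5.61 and 4.12 (1.25 ± 0.45 SE, adjusted p = 0.047), a call made in 2 of the 7 fits without 1 library. Zeb1 did not pass (-0.19 ± 0.09 SE, adjusted p = 0.12).

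Hox genes, which set position along the body axis and are silent in normal forebrain, were present in both groups. Of 20 tested, 5 were higher in sorted cells, a share near the 23% of all genes, and none in bulk, and 3 were called without tumor 47 or 48 or any 1 sorted sample. Hoxc10 had 444, 411, 297 and 314 normalised counts in bulk and 710.0, 658 and 599 in sorted cells (-0.84 ± 0.16 SE, adjusted p = 0.0034). Hoxa5 had 95.7, 108, 81.6 and 73.0 against 184, 145 and 154 (-0.85 ± 0.18 SE, adjusted p = 0.0065). Hoxa9 had 195, 184, 127 and 123 against 184, 162 and 122 (adjusted p = 0.96). Bulk tumors 39 and 40 were above 47 and 48 in Hoxc10 and in the sum of the list, 259, 261, 185 and 178 TPM. Of the WNT list, 9 of 16 tested genes were higher in sorted cells and 2 in bulk, against 23% and 26.9% of all genes. Lef1, a transcription factor of the pathway, had 163, 212, 114 and 90.6 against 345, 347 and 442 (-1.38 ± 0.28 SE, adjusted p = 0.0045). Wnt5a, a ligand, had 558, 616, 439.6 and 398 against 1024, 1075 and 1083 (-1.08 ± 0.15 SE, adjusted p = 0.0011). Dkk2, a secreted antagonist, had 52.6, 93.0, 72.3 and 62.9 against 251, 164 and 242 (-1.64 ± 0.24 SE, adjusted p = 0.0012). Axin2, a feedback target of the pathway, had 83.5, 72.5, 129.8 and 123 against 114, 102 and 97.8 and did not pass (adjusted p = 0.92), and Sfrp1, a secreted inhibitor, was higher in bulk with 37.5, 33.5, 83.5 and 77.6 against 2.39, 3.37 and 2.06 (4.42 ± 0.55 SE, adjusted p = 8.1e-04).

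**Figure D4:**
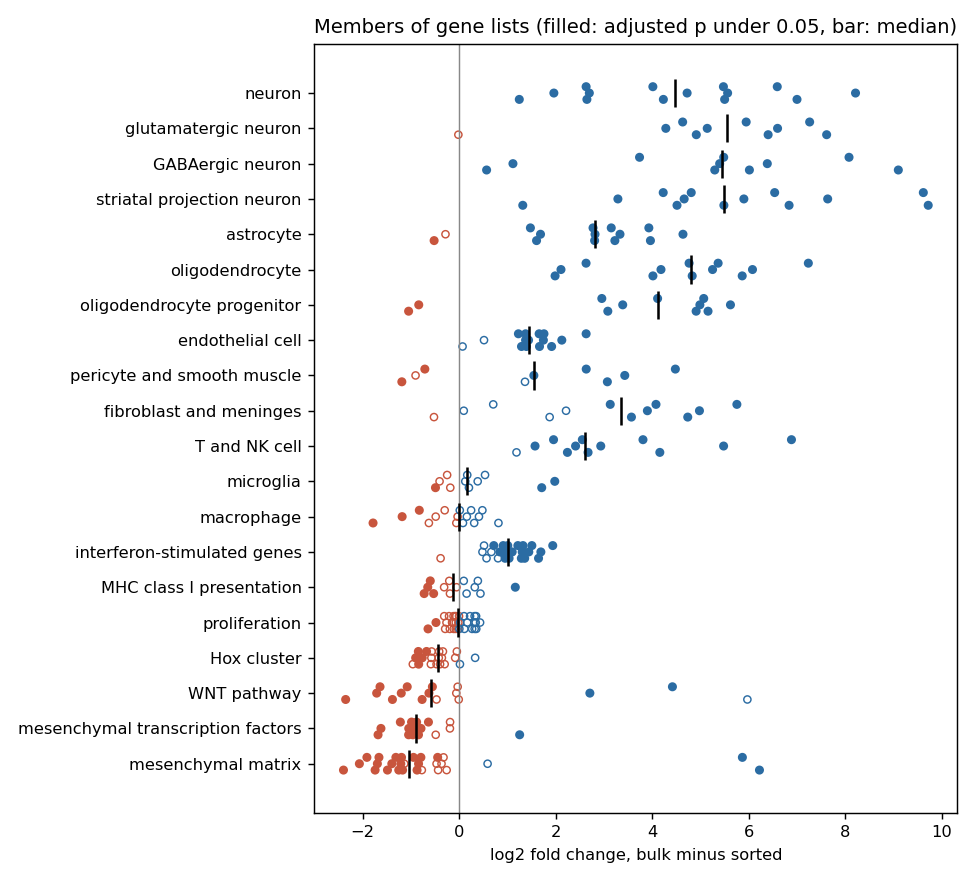
Log2 fold change (bulk minus sorted, x axis) of each tested member of 20 gene lists (rows), filled where the gene passed the threshold of 0.05 and open where it did not, with a vertical bar at the median of the list. Neuronal and myelin members lie to the right of 0, other than 1 glutamatergic gene at -0.02, macrophage and proliferation members lie around 0, and most matrix and mesenchymal factor members lie to the left, with Col1a2 and Lox far to the right.

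Few cell cycle genes passed the test. Of 32 tested members of the proliferation list 2 were higher in sorted cells and none in bulk, against 23% and 26.9% of all genes. The median was -0.02. Mki67, the proliferation antigen, had 3481, 3719.9, 2282 and 2594 normalised counts in bulk and 2024, 2841 and 2655 in sorted cells (0.27 ± 0.20 SE, adjusted p = 0.30). Top2a, a topoisomerase of dividing cells, had 6065, 6275, 4222 and 4344 against 5331, 5752 and 5292 (-0.06 ± 0.17 SE, adjusted p = 0.78). Bulk tumors 39 and 40 exceeded 47 and 48 in both. Mcm4, a subunit of the replicative helicase, had 1200.3, 1203, 859.8 and 897 against 1511, 1763 and 1605 (-0.65 ± 0.15 SE, adjusted p = 0.0075). Bub1, a checkpoint kinase, had 658, 789, 525 and 506 against 925, 872 and 796 (-0.48 ± 0.16 SE, adjusted p = 0.038), and these were the members higher in sorted cells, with the call of Bub1 lost in 6 of the 7 fits without 1 library. None of 6 tested replication-dependent histone genes passed. Of 18 ribosome biogenesis and MYC genes 4 were higher in sorted cells, a share near the 23% of all genes, and 2 were called without tumor 47 or 48 or sample 69 and 1 without sample 70. Myc itself had 423, 470.4, 394 and 381 against 486, 476 and 312 (adjusted p = 0.91). Ncl, the nucleolar protein nucleolin, had 9812, 9528, 7388 and 7494 against 8400.0, 10454 and 9556 (adjusted p = 0.44). Npm1, nucleophosmin, had 9510.3, 10031, 7435 and 7729 against 13814, 14171 and 11139 (-0.59 ± 0.15 SE, adjusted p = 0.014). Hypoxia and glycolysis genes varied among the sorted samples. Car9, a carbonic anhydrase induced by low oxygen, had 144, 169, 199 and 183 in bulk and 543, 196 and 63.8 in sorted cells. Bnip3, a mitophagy receptor, had 934, 1093, 1227 and 1031 against 2028, 1472 and 389, with sample 69 highest and 71 lowest in both. Neither passed, and of the 15 tested members 2 were higher in bulk and 1 in sorted cells, against 26.9% and 23% of all genes. Without tumor 47 or sample 70, 1 was higher in bulk, and without sample 71, 3 were higher in sorted cells.

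Of 14 class I antigen presentation genes, a subject of the study, 1 was higher in bulk and 4 in sorted cells, against 26.9% and 23% of all genes. H2-K1, a class I heavy chain, had 6549, 12813, 13394 and 9157 normalised counts in bulk and 12393, 10994 and 12496 in sorted cells (-0.19 ± 0.24 SE, adjusted p = 0.54). H2-D1, the other, had 7049.7, 13026, 13324 and 9434 against 12937, 11359 and 12741 (-0.21 ± 0.22 SE, adjusted p = 0.47). Tumors 39 and 48 were the lower pair in both genes, which share near-identical stretches, so that reads may be split between them. B2m, the light chain, had 7932, 12045, 13182 and 9643 against 15469.8, 15239.5 and 15609 and was higher in sorted cells (-0.53 ± 0.18 SE, adjusted p = 0.039), a call lost in 5 of the 7 fits without 1 library. The chaperones Calr, Canx and Pdia3 were also higher in sorted cells (-0.60, -0.73 and -0.65). The peptide transporter gene Tap1 had 1113, 1232, 2139 and 1055 in bulk against 1037, 935 and 1204 and did not pass (0.39 ± 0.25 SE, adjusted p = 0.24), and neither did Tap2 (0.32 ± 0.26 SE, adjusted p = 0.33). Of the immunoproteasome subunits, Psmb10 was higher in bulk, with 592, 479, 1016 and 539.8 against 313, 265 and 302 (1.16 ± 0.26 SE, adjusted p = 0.0078), while Psmb8 and Psmb9 had log2 fold changes of -0.06 and 0.44 and did not pass.

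Interferon-stimulated genes were higher in bulk in 18 of 24 tested members, against 26.9% of all genes. None was higher in sorted cells, and the median was 1.02. Ifit3, an antiviral protein, had 1229, 851, 2284 and 1182 normalised counts in bulk and 436, 361 and 489 in sorted cells (1.69 ± 0.33 SE, adjusted p = 0.0043). Isg15, a ubiquitin-like protein, had 539.6, 551, 989.6 and 549 against 399, 301 and 320.3 (0.95 ± 0.25 SE, adjusted p = 0.014). Tumor 47 was the highest in both, and no sorted sample reached a bulk tumor in either. The number of called members fell to 7 without sample 70 and to 12 without sample 69. Igtp, an interferon-induced GTPase, had 1894, 1038, 3604 and 1199.9 against 459, 467 and 587 (1.94 ± 0.44 SE, adjusted p = 0.0082). Ifit1 had 826, 769.8, 1359.7 and 885 against 666, 679 and 670.4 and did not pass (adjusted p = 0.057). Among chemokines 3 of 15 tested genes of the list were higher in bulk and 3 in sorted cells, against 26.9% and 23% of all genes. Without tumor 40 or 48, 5 were higher in bulk. Cxcl10, which draws T cells, had 1697, 839.6, 2154 and 966 against 543, 406 and 612 (1.44 ± 0.35 SE, adjusted p = 0.011). Ccl5 had 172, 349, 362 and 261 against 149, 92.0 and 133 (1.20 ± 0.29 SE, adjusted p = 0.010). Cxcl12, a stromal chemokine, had 130.4, 72.5, 208 and 254 against 10.8, 13.5 and 17.5 (3.56 ± 0.49 SE, adjusted p = 0.0011). Ccl2, which draws monocytes, had 278, 203, 311 and 173 against 198, 158 and 162 (adjusted p = 0.10). Cd274, the checkpoint ligand PD-L1, had 466, 271, 892 and 261 against 224, 194 and 255 and did not pass (1.07 ± 0.44 SE, adjusted p = 0.075), although every bulk tumor was above every sorted sample. Cxcl2, a neutrophil chemokine, was higher in sorted cells, with 1.88, 5.58, 7.42 and 0.92 against 47.8, 244 and 53.5 (-4.82 ± 0.81 SE, adjusted p = 0.0023). It was highest in sample 70. Without sample 70, 3165 genes were higher in bulk and 2291 higher in sorted cells.

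Cells switch on immediate early genes within minutes of a stimulus. In their list, which also holds heat shock genes, 10 of 22 tested members were higher in sorted cells, against 23% of all genes. Fos, a subunit of the AP-1 factor, had 80.7, 135, 193 and 169 normalised counts in bulk and 2217, 1940.3 and 1672 in sorted cells (-3.75 ± 0.27 SE, adjusted p = 1.3e-04). Fosb had 56.3, 59.5, 52.9 and 62.9 against 1259.8, 906 and 728 (-4.05 ± 0.20 SE, adjusted p = 1.1e-05). Jun had 1156, 1589.8, 1461 and 1292 against 6453, 5038 and 4431 (-1.95 ± 0.16 SE, adjusted p = 2.1e-04). Egr1 had 610.0, 795, 842 and 1349.6 against 4031, 3465 and 2382 (-1.87 ± 0.28 SE, adjusted p = 0.0016). All 4 were without overlap. None of the 5 heat shock genes of the list passed. Hspa1a, an inducible chaperone, had 69.4, 74.4, 108 and 80.4 against 51.4, 32.5 and 87.5 (0.53 ± 0.34 SE, adjusted p = 0.23). Hsp90aa1 had 8391, 9442, 9143 and 9869 against 10194, 9708 and 7754 (-0.00 ± 0.13 SE, adjusted p = 0.995). Hspa1a has a near-identical copy, Hspa1b, with which it may share reads. Of 13 mitochondrially encoded genes 3 were higher in sorted cells, a share near the 23% of all genes, and 1 in bulk. Without tumor 48, 7 were higher in sorted cells. For 5 of the mitochondrial genes, among these mt-Nd6 and mt-Atp8, the Salmon and RSEM counts differed over 4-fold in a group. mt-Co1, a cytochrome oxidase subunit without that difference, had 71912, 62876, 86425 and 95549 against 97873, 104339 and 117026 (adjusted p = 0.087).

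By size of change, and leaving out predicted genes with Gm or Rik names, some of which changed more, the 10 leading genes on the bulk side were Kap, Cdr1, Pakap, Mup22, Tac1, Olfm3, Drd1, Kcnk9, St8sia3 and Sst. Several are neuronal, such as Kcnk9, a potassium channel with 332, 115, 437 and 471 normalised counts in bulk and 0, 1.12 and 0 in sorted cells (9.42 ± 0.93 SE, adjusted p = 4.9e-04), and St8sia3, a brain sialyltransferase with 223, 107, 399 and 567 against 1.20, 0 and 0 (9.35 ± 1.07 SE, adjusted p = 7.3e-04). Kap, a kidney androgen-regulated protein, led these 10 with 511, 595, 627 and 253 in bulk and no read in any sorted library, at least 148-fold higher in bulk. Reads of 4 other genes of kidney tubules, named after the values of Kap had been seen, were also present in all 4 bulk tumors. They were Umod with 12, 12, 4 and 12 estimated reads, Slc34a1 with 19, 6, 10 and 24, Akr1c21 with 24, 24, 29 and 18, and Miox with 10, 8, 9 and 15. None of these 5 genes had a read in samples 69, 70 and 71, and in the 4 GL261 bulk libraries, which held 34622622 to 42608400 estimated reads, Kap had 0 to 4 and Miox 0 to 12. Miox also had 1 to 4 reads in each GL261 sorted library. The origin of these reads was not tested. For Cdr1 and Mup22, Salmon and RSEM counts differed over 4-fold in a group, and Mup22 belongs to a family of near-identical copies.

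The 10 leading genes on the sorted side, again without predicted genes, were copies or pseudogenes of ribosomal protein genes, led by Rps6-ps4, which had no read in bulk and 834, 697 and 707 in sorted cells. Of 64 genes with a log2 fold change below -4, 53 were pseudogenes. These calls are uncertain. Near-identical copies can share reads and read length differed between the groups, but the part of either in these calls was not tested. Rps27 and its copy Rps27rt went opposite ways. Rps27 had 2158, 2949, 2234 and 2203 in bulk and 61.0, 44.9 and 89.6 in sorted cells, with a log2 fold change of 5.19 from Salmon and -0.96 from RSEM counts. Rps27rt had 87.3, 0, 99.2 and 0 in bulk and 5077, 4300.3 and 3269.5 in sorted cells. Summed over 392 ribosomal protein genes and copies, 3.52 to 4.51% of the reads of a bulk library and 3.29 to 4.57% of a sorted library fell on them. Without pseudogenes, ribosomal protein genes and genes on which the quantifications differ, a choice made after the values were seen, the leading genes were Cxcl2, Fosb, Rgs1, Fos, Itga8, Gpc4, Postn, Itga1, Dusp1 and Igf1. Rgs1, a regulator of G-protein signaling in leukocytes, had 31.0, 55.8, 62.1 and 38.8 in bulk and 562, 625 and 836 in sorted cells (-3.84 ± 0.25 SE, adjusted p = 7.1e-05). Itga8, an integrin of mesenchyme, had 62.9, 86.5, 48.2 and 33.3 against 373, 311 and 606 (-2.90 ± 0.35 SE, adjusted p = 7.7e-04). Gpc4, a cell surface proteoglycan, had 115, 149, 89.0 and 86.9 against 632, 678 and 854 (-2.71 ± 0.21 SE, adjusted p = 1.5e-04). No bulk tumor reached a sorted sample in these 3. Igf1, a growth factor that macrophages also make, had 114, 125, 121 and 171 against 604, 558 and 799 (-2.30 ± 0.18 SE, adjusted p = 1.7e-04). Rgs1, Itga8, Gpc4 and Igf1 were all highest in sample 71.

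The same comparison in GL261, the other line of the series, had 4 bulk tumors and 4 sorted samples and the same confounding. The interaction, the CT2A difference minus the GL261 difference, was positive for 919 (5.8%) and negative for 1216 (7.67%) of 15845 genes tested. Its median over all genes was -0.12, and with DESeq2 size factors it was 0.00 and 53.7% instead of 43.0% of the calls were positive, so single interactions are given relative to a median of that size. Of the genes higher in bulk in CT2A, 3926 were also tested in GL261, and 2199 of these (56.0%) were called higher in bulk there and 137 higher in sorted cells, where 20.1% of all genes tested in GL261 were higher in bulk and 14.4% higher in sorted cells. Of the genes higher in sorted cells, 1083 of 3347 (32.4%) were called in the same direction and 166 in the opposite one. As a share of the GL261 calls tested in CT2A, the shared ones were 74.6% of 2949 genes higher in bulk and 53.3% of 2032 higher in sorted cells.

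Few neuronal genes and most progenitor genes passed the interaction. In the neuron list 1 of 14 members passed the interaction, and in the glutamatergic, GABAergic and striatal lists none of 33 did. Over all genes 5.8% passed with a positive and 7.67% with a negative sign. On simulated data the fit found 5% of 2-fold and 45% of 4-fold interactions, so few calls do not show equal differences. In the oligodendrocyte list 4 of 12 passed, all positive, with a median interaction of 2.19. Sorted cells held 14.2% of the bulk sum of that list in CT2A and 29.0% in GL261. In the oligodendrocyte progenitor list 9 of 11 passed, all positive, against 5.8% of all genes. Sox10 was lower in sorted cells in CT2A (4.99) and had -1.22 in GL261, an interaction of 6.06 ± 0.53 (SE, adjusted p = 1.6e-05). Olig2 had 4.91 in CT2A and -0.85 in GL261 (5.62 ± 0.57 SE, adjusted p = 4.1e-05), and Gpr17, a receptor of the oligodendrocyte lineage, 5.62 and -4.15 (9.63 ± 0.99 SE, adjusted p = 4.2e-05). Summed over the list, sorted cells held 54.0% of bulk in CT2A and 198% in GL261. The largest positive interactions were of Acan, Impg1, Cnmd, Gpr17, Rps3a2 and Ms4a4d. Acan, the cartilage and perineuronal net proteoglycan aggrecan, averaged 29.0 normalised counts in CT2A bulk, 0 in CT2A sorted cells, 26.1 in GL261 bulk and 979 in GL261 sorted cells. In CT2A sorted cells Acan, Impg1, Rps3a2 and Ms4a4d had no read in any library, so the size of their fitted interactions depends on the prior count of the fit.

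Matrix and WNT genes that passed had negative interactions. In the matrix list 9 of 28 members and in the WNT list 9 of 19 passed the interaction with a negative sign, none with a positive one, against 7.67% of all genes. Col4a1 had -1.91 in CT2A and 0.82 in GL261 (-2.88 ± 0.34 SE, adjusted p = 1.2e-04), Col5a2, a fibrillar collagen, -1.25 and 2.51 (-3.93 ± 0.41 SE, adjusted p = 4.7e-05), and Wnt5a -1.08 and 2.32 (-3.55 ± 0.36 SE, adjusted p = 4.2e-05). Each was higher in sorted cells in CT2A and higher in bulk in GL261. The largest negative interactions were of Col24a1, Tram1l1, Robo2, Camk1g, Bmper and Epdr1. Robo2, an axon guidance receptor, averaged 1013 normalised counts in CT2A bulk, 1453 in CT2A sorted cells, 602 in GL261 bulk and 5.05 in GL261 sorted cells (-7.39 ± 1.03 SE, adjusted p = 4.5e-04). Epdr1, a secreted ependymin-related protein, averaged 1200.0, 2045, 617 and 7.52 in the same order (-7.10 ± 0.90 SE, adjusted p = 2.1e-04). Positive interactions made up 5.8% of all genes. Interferon-stimulated genes were higher in bulk in CT2A, and 5 of 24 had a positive interaction. Of 22 Hox genes tested 7 had a positive interaction, as did 5 of 15 hypoxia and glycolysis, 3 of 7 MHC class II and 3 of 15 endothelial genes, and none in these lists a negative one. Of immediate early and heat shock genes 1 of 22 passed in each direction, and Fos had -3.75 and -4.07 (0.16 ± 0.44 SE, adjusted p = 0.87).

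**Figure D5:**
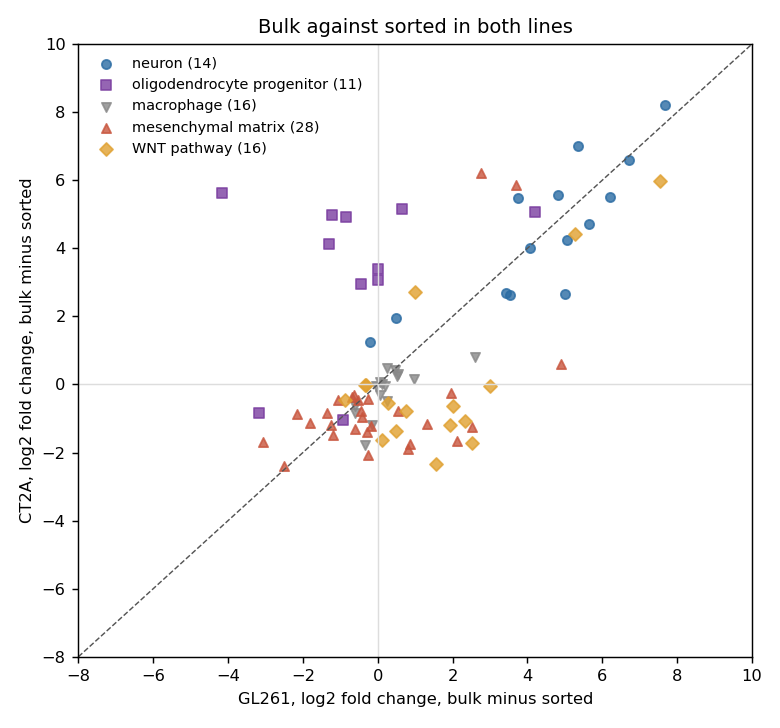
Log2 fold change (bulk minus sorted) in GL261 (x axis) against CT2A (y axis) of the members of 5 gene lists that were tested in both lines, with 1 point per gene and the diagonal of equal difference. Neuronal members lie along the diagonal at the upper right, 8 of 11 progenitor members lie above 2 in CT2A and below 1 in GL261, and many matrix and WNT members lie below the diagonal.

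A second set of sorted CT2A samples was at hand, 5 libraries that the labels describe as neurosphere culture of the same subline, although their titles name GL261 and their descriptions, cell line entries and file names CT2A. They were compared with the same 4 bulk tumors, so the values stand side by side only. Against them 4064 genes were higher in bulk and 3193 higher in sorted cells. Snap25 had a log2 fold change of 8.63, Mbp of 3.90, Col1a2 of 5.49, Col3a1 of -1.75, Prrx1 of -1.42 and Fos of -5.52. Summed TPM of the macrophage list ran from 1041 to 4378 in these 5 libraries, so macrophage transcripts were found in every one of them.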

How the data were processed

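RNA of 4 bulk CT2A tumors and 3 sorted CT2A samples was compared, with 8 GL261 libraries for the interaction and 5 neurosphere-derived sorted CT2A libraries set beside them. The authors quantified reads with Salmon and, after STAR 2.7.7a, with RSEM 1.3.3 on GRCm38 (mm10), per the labels, and deposited estimated counts per transcript and per gene, the effective lengths and TPM values. Here the estimated counts of Salmon were summed per gene by the transcript-to-gene pairs of the RSEM files and the annotation and rounded, and the deposited TPM was summed over the genes of a list. The members and gene lists were chosen with earlier results of these data known. Genes with a mean TMM-normalised count above 10 were tested with edgeR 4.0.16 in R 4.3.3 (robust quasi-likelihood test, no covariate, Benjamini-Hochberg adjustment over all genes tested, threshold 0.05). The study fitted DESeq2, which was run here as an alternative (version 1.42.0). Kits, read length and cohort could not be entered as covariates, because they split the libraries as the sort did.

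Genes were named by rule: per list the first 3 members and up to 4 calls in each direction with the smallest p, the genes the study discusses in the class I, chemokine and matrix lists, the 10 highest and lowest fold changes among calls without overlap that reached 10 CPM in either group, predicted genes (Gm or Rik names) left out, and 6 per direction in the interaction. Outside the rule, chosen after their values were seen, are Bnip3, C1qa, Camk2a, Clec3b, Clic6, Cldn11, Cxcl10, Dpt, Flt1, Gja1, Gpc4, Hoxa9, Hsp90aa1, Igf1, Igtp, Itga8, Kl, Map2, Mobp, Nphs1, Olfr784, Olig2, Pi16, Ptprc, Rgs1, Rps27, Runx1, Slc38a6, Tubb3 and the 4 kidney genes beside Kap. Tested on simulated data, the edgeR fit found 51% of genes changed 2-fold and 91% of those changed 4-fold in the bulk and sorted design (13733 genes, 12 false calls), and 5% and 45% in the interaction (14902 genes, 3 false calls). The simulation changed a small part of the genes, as many up as down, unlike the data, so these rates may not carry over. Depth was 8325102 to 9853530 reads as estimated by Salmon, and a floor of 3 reads per library, which covers counting error only, was used where all libraries of a group were at 0. Alternatives changed the test, scaling, minimum count, quantification, effective length and libraries, and their effect is given at the end.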

Additional observations from a re-analysis of the deposited data

Results flagged for a closer look

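In 176 sets of 4 bulk tumors, 32 list sums and 144 named genes, the highest or lowest tumor stood apart from the other 3 by Dixon's test in 15, where chance alone flags about 1 in 20 groups. Of the 15, Clec3b, Clic6, Dpt, Pi16, Ptprc and Rps27 were named after their values were seen, so the count cannot be read against that rate. Tumor 48 stood high for the ependymal and choroid plexus list (773 TPM) and for its members Ttr (3989 normalised counts) and Clic6 (116), and for Ighm (338). Tumor 47 stood high for the fibroblast genes Clec3b (85.3), Dpt (154) and Pi16 (125) and for the interferon-related genes Isg15 (989.6), Tap1 (2139) and Tap2 (1241). Tumor 39 stood low for the macrophage list (1541 TPM), for Ptprc (468) and for the immediate early and heat shock list (1311 TPM). Tumor 40 stood high for Gzma (126) and Rps27 (2949).

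The difference between bulk and sorted samples differed between CT2A and GL261, by the interaction test, for 17 of the 18 genes named for it, of which 12 were named for the size of their interaction, so that this count is fixed by the choice. Over all genes 5.8% had a positive and 7.67% a negative interaction. Positive interactions (log2) were 6.06 for Sox10, 5.62 for Olig2, 9.63 for Gpr17, 13.08 for Acan, 12.00 for Impg1, 10.17 for Cnmd, 9.52 for Rps3a2 and 8.45 for Ms4a4d. Negative interactions were -10.00 for Col24a1, -7.46 for Tram1l1, -7.39 for Robo2, -7.36 for Camk1g, -7.22 for Bmper, -7.10 for Epdr1, -2.88 for Col4a1, -3.93 for Col5a2 and -3.55 for Wnt5a. For Acan, Impg1, Rps3a2 and Ms4a4d no CT2A sorted library and for Col24a1 no GL261 sorted library had a read, so these fitted values depend on the prior count and are neither exact sizes nor bounds. GL261 carries the same confounding of sort with cohort and read length, and its bulk libraries were sequenced more deeply.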

How the results depend on the processing

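No paired analysis was possible because bulk and sorted samples share no replicate numbers. Of 145 named genes tested, 101 kept direction and side of the threshold under every alternative other than the fold minimum, and of 18 named interactions 16 did. The number of genes higher in sorted cells was 2118 with library size only, and with a fold minimum of 2 it was 577, while genes higher in bulk stayed within a ratio of 1.5 (DESeq2 called 4143 and 3389). Without 1 library each, 3165 to 4178 genes were higher in bulk and 2291 to 3698 higher in sorted cells, both lowest without sorted sample 70. Against the neurosphere-derived samples 4064 and 3193 genes were called. Positive interactions numbered 1449 with DESeq2. Negative ones numbered 757 without the genes on which Salmon and RSEM differ over 4-fold, a choice made after seeing the data, and 787 to 1334 without 1 library each, with 789 and 787 without GL261 sorted samples 82 and 84 and 791 without CT2A sorted sample 70. Lists without overlap of their sums numbered 18, and 16 to 21 under the alternatives.

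Reversed were Rps27 (-0.96) and the interaction of Rps3a2 (-2.02) with RSEM counts, and Ttr, at -4.05 without tumor 48 and up to 2.61 without tumor 39. The cause was not tested. With library size only, the medians of 3 of the 32 lists, class I presentation, macrophage and proliferation, changed sign, and the macrophage median also with DESeq2 size factors. Calls of Slc1a2, Bub1, B2m, Sox9 and Vim were each lost in 5 or 6 of the 7 fits that left out 1 library, those of Cd3e and Siglech in 4, those of Acta2, Snai1, Clec3b and S100a8 in 3, those of Cd8a and Isg15 in 2, and those of Camk2a, Cdh5, Fn1, Ighm and Npm1 in 1. As a share of bulk, the sorted level of the ependymal list was 275% without tumor 48, against 21.2%, and that of progenitor genes 30.2% without Pdgfra, against 54.0%.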
